A study of Homo sapiens with 6 samples.

Results

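The 9 genes described here serve the presentation of peptides by class I molecules of the major histocompatibility complex (MHC). They were chosen by name and role, with no peak value in the rule, though earlier results of these data were known: the heavy chains HLA-B, HLA-C, HLA-E and HLA-F, the light chain B2M, the peptide transporter genes TAP1 and TAP2, the loading factor TAPBP and the transactivator NLRC5. They are 9 of 19811 coding genes of the annotation. Every SUMO-2/3 peak between 10 kb upstream and 10 kb downstream of each gene was taken, which gave 16 of the 44265 mock peaks, 28 of the 72279 Ara-C peaks and 8 of the 33355 DNR peaks.

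HL-60 cells, an established human acute myeloid leukaemia line, received water (mock), 2 µM of the nucleoside analogue cytosine arabinoside (Ara-C) or 1 µM of the anthracycline daunorubicin (DNR) for 2 h. Chromatin was precipitated with 2 µg of antibody against SUMO-2/3 and sequenced (ChIP-seq), to find where conjugates of this small ubiquitin-related modifier lie on chromatin before and after each drug. Material from 3 biological replicates was pooled into 1 library per condition, so there is 1 peak list per condition, no replicate spread and no test between conditions, and the 3 input libraries were not analysed here. A list holds only peak positions, so a missing peak means that no stretch passed the calling threshold there, not that the signal was absent; library depth is unknown from the lists, and they hold no measure that could check the cell type.

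Cells cut cytosolic proteins into peptides with the proteasome, and the TAP1 and TAP2 subunits form the transporter that carries these peptides into the endoplasmic reticulum. There tapasin, the product of TAPBP, holds the transporter beside empty class I molecules, each made of a heavy chain and beta-2 microglobulin, until a peptide is bound, and the loaded molecule then travels to the surface for inspection by CD8+ T cells and natural killer cells. Transcription of these genes is driven by NLRC5 with the RFX complex, by NF-kappa B and by interferon through factors that bind the interferon-stimulated response element (ISRE). SUMO is attached to lysines of many chromatin-bound proteins, transcription factors included.

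The sequences below carry the places on which the results turn, all read 5′ to 3′ along the gene's strand from GRCh37, the assembly underlying hg19. The first set is from peaks, given in part except for HLA-E: 151 bases at the upstream end of the TAP2 start site peak (chr6:32806600-32806750, minus strand), 129 bases of the peak before the B2M start (chr15:45003522-45003650, plus strand), 194 bases of the peak between TAP1 and PSMB9 (chr6:32822007-32822200, minus strand), the upstream end of the only HLA-B peak (chr6:31334835-31334950, minus strand) and the whole DNR peak nearest to the HLA-E start (chr6:30457401-30457550, plus strand). Capitals mark an ISRE match in B2M and a match to the core consensus of CTCF, a factor that organises chromatin loops, in HLA-B.
TAP2 start site peak: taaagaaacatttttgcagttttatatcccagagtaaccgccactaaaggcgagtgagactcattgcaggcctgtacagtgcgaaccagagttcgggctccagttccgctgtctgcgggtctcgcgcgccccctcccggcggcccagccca
B2M peak before the start site: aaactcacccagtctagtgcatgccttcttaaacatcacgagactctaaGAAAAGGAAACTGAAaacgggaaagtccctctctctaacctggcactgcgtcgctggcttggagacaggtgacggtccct
TAP1 and PSMB9 peak: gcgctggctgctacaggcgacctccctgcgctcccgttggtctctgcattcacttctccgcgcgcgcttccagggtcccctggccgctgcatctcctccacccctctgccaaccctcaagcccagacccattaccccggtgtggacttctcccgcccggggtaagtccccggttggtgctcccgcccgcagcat
HLA-B peak: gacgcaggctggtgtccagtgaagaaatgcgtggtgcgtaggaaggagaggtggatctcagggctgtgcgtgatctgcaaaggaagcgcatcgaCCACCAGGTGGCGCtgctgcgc
HLA-E peak: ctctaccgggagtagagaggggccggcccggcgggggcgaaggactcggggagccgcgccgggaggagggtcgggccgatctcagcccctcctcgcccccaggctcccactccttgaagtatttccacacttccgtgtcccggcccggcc

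The second set shows the ISRE matches of the other promoters, in capitals, whether or not a peak lay over them. The ISRE was searched on both strands as GAAANNGAA, so that it reads TTCNNTTTC on the other strand, and adjoining matches run together. The stretches are HLA-F (chr6:29691031-29691082, plus strand), TAP1 (chr6:32821594-32821639, minus strand), TAP2 (chr6:32806558-32806582, minus strand), TAPBP (chr6:33281854-33281882, minus strand) and NLRC5 (chr16:57023458-57023482, plus strand).
HLA-F promoter: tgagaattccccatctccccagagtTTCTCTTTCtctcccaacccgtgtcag
TAP1 promoter: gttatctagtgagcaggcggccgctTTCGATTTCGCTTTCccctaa
TAP2 promoter: ggggaagcGAAAGCGAAagctgccc
TAPBP promoter: tttggagGAAAGTGAAAGTGAAaggagga
NLRC5 promoter: cttctactTTCAGTTTCgtgcagag

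All 9 genes had an Ara-C peak in the window, 7 had a mock peak and 6 had a DNR peak. Among all coding genes 75.3% had an Ara-C peak, 65.0% a mock peak and 49.7% a DNR peak in the same kind of window. On chromosome 6, where 7 of the 9 genes lie, the shares of its 1028 coding genes were 90.3%, 83.0% and 64.0%, so presence of a peak somewhere in the window was close to the background. HLA-B and HLA-C had a peak in the Ara-C list alone and B2M in the mock and Ara-C lists. HLA-E, HLA-F, TAP1, TAP2, TAPBP and NLRC5 had peaks in all 3 lists, as did 37.8% of coding genes.

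Promoter peaks, meaning any overlap with the 2 kb before the transcription start site (TSS) of a basic coding transcript, were found for 5 genes in the Ara-C list, HLA-B, B2M, TAP1, TAP2 and TAPBP. The mock list had 1, TAP2, and the DNR list had 0. Among all coding genes 25.3% had an Ara-C promoter peak, 20.6% a mock promoter peak and 6.00% a DNR promoter peak, and on chromosome 6 the shares were 35.8%, 29.5% and 9.05%. HLA-B, B2M, TAP1 and TAPBP had a promoter peak in the Ara-C list alone, as did 12.0% of coding genes. TAP2 shared its pattern of mock and Ara-C without DNR with 10.8% of coding genes. HLA-C, HLA-E, HLA-F and NLRC5 had no promoter peak in any list, like 63.8% of coding genes.

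These calls depended on the promoter rule. With only the canonical transcript of each gene, 3 genes remained in the Ara-C list (B2M, TAP1 and TAP2), since the HLA-B and TAPBP peaks lie at the starts of other transcripts; 21.6% of coding genes had an Ara-C peak under that rule. With 1 kb on each side of a TSS, the mock list had 3 genes (TAP2, TAPBP and NLRC5), the Ara-C list 6, with HLA-E added, and the DNR list 1, HLA-E. The shares of coding genes were then 23.0%, 27.8% and 6.61%.

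**Figure D1:**
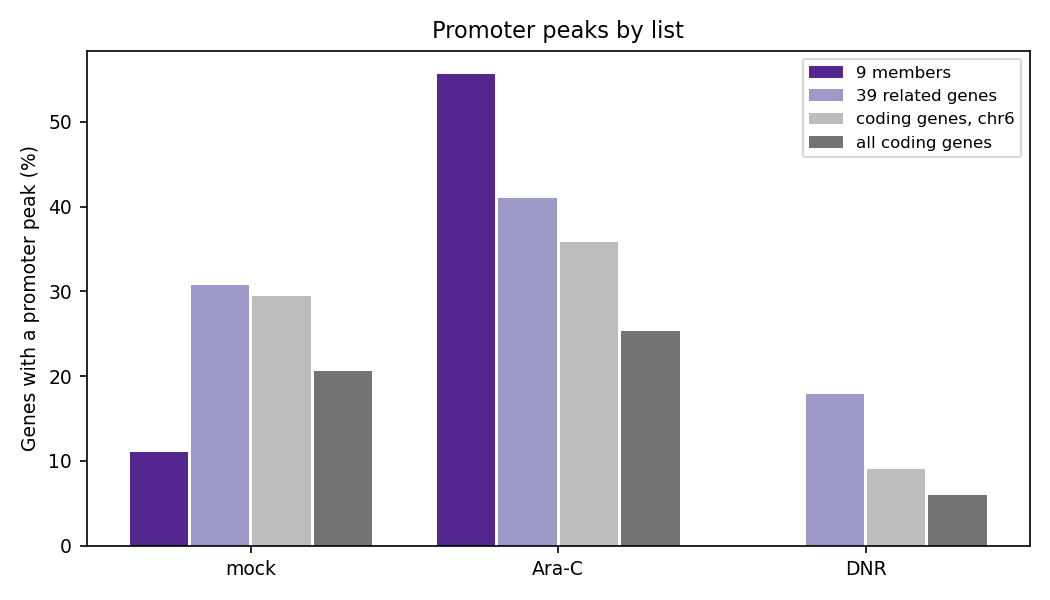
Bars give the percentage of genes with a promoter peak (y axis) in the mock, Ara-C and DNR lists (x axis) for the 9 genes, 39 related genes, the coding genes of chromosome 6 and all coding genes. The 9 genes stand at 11.1% in mock, 55.6% in Ara-C and 0% in DNR, against 20.6%, 25.3% and 6.00% of all coding genes; with 9 genes, 1 gene changes a bar by 11.1 percentage points.

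With all peaks counted, the Ara-C and mock windows differed about as much as the lists. The Ara-C list was 1.63 times as long as the mock list, and the windows held 1.75 times as many peaks. The DNR list was 0.754 times as long as mock, and the windows held 8 peaks where scaling by list length would give 12.1; the exact 95% Poisson interval of 8 is 3.45 to 15.8, which contains 12.1. As a share of the list, the windows took up 0.0361% of the mock list (95% Wilson interval 0.0223 to 0.0587), 0.0387% of the Ara-C list (0.0268 to 0.0560) and 0.0240% of the DNR list (0.0122 to 0.0473), and all 3 intervals overlap. Among peaks of at least 200 bp the windows held 21 Ara-C and 8 mock peaks, 2.62 times as many, where the lists differed 1.65 times. The shares were then 0.0599% of the Ara-C list (0.0392 to 0.0916) and 0.0378% of the mock list (0.0191 to 0.0745), which overlap. These intervals cover counting error only.

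Chromosome 6 is dense in peaks, and the MHC more so. It held 26.0 mock, 39.4 Ara-C and 18.6 DNR peaks per Mb, rank 4, 4 and 5 of the 22 autosomes, whose medians were 14.7, 25.2 and 12.1. The 3.61 Mb from HLA-F to TAPBP held 174 mock peaks (48.2 per Mb), 224 Ara-C peaks (62.0 per Mb) and 86 DNR peaks (23.8 per Mb), against 25.5, 38.9 and 18.5 per Mb in the rest of the chromosome. That density lay above 96.6%, 94.7% and 87.7% of the 2640 autosomal bins of 1 Mb. The region around B2M was sparse, with 8 mock, 13 Ara-C and 3 DNR peaks in the 500 kb on each side of the window.

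The peaks in each window were therefore set against the density of 500 kb on each side, outside the windows of the 9 genes. Over the 8 separate windows (345 kb, TAP1 and TAP2 merged) the mock list had 16 peaks where 10.8 were expected, a ratio of 1.49 (95% Poisson interval 0.849 to 2.41). The Ara-C list had 28 where 15.1 were expected, a ratio of 1.85 (1.23 to 2.68). The DNR list had 8 where 6.02 were expected, a ratio of 1.33 (0.573 to 2.62). With this background only the Ara-C interval lay above 1. With the whole chromosome as background the mock ratio was 2.29 (1.31 to 3.71), also above 1. The 3 intervals with the local background overlap one another, and a difference between lists was not tested. This ratio was not computed for other coding genes, so a value above 1 is not shown to be particular to the 9. The windows of all coding genes held on average 1.84 mock, 2.83 Ara-C and 1.19 DNR peaks.

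By role, the ratios were higher around the transporter and tapasin genes than around the heavy chains in each list, a difference that was not tested. In the 86.6 kb around TAP1, TAP2 and TAPBP, 14 Ara-C peaks stood against 4.32 expected, a ratio of 3.24 (1.77 to 5.43). The mock list had 7 against 3.04 (ratio 2.30, 0.926 to 4.75) and the DNR list 3 against 1.18 (ratio 2.55, 0.525 to 7.44). In the 117 kb around the 4 heavy chains the Ara-C list had 7 peaks against 6.90, a ratio of 1.01 (0.408 to 2.09), the mock list 3 against 5.46 (ratio 0.549, 0.113 to 1.61) and the DNR list 4 against 2.94 (ratio 1.36, 0.371 to 3.49). The intervals of both groups of genes overlap in each list, for Ara-C between 1.77 and 2.09. The windows of TAP1, TAP2 and TAPBP also cover neighbouring genes, and part of their peaks lay at PSMB8, PSMB9, HLA-DOB or RGL2. The intervals treat peaks as independent, but all mock and Ara-C peaks at the RGL2 promoter fell within 950 bp.

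**Figure D2:**
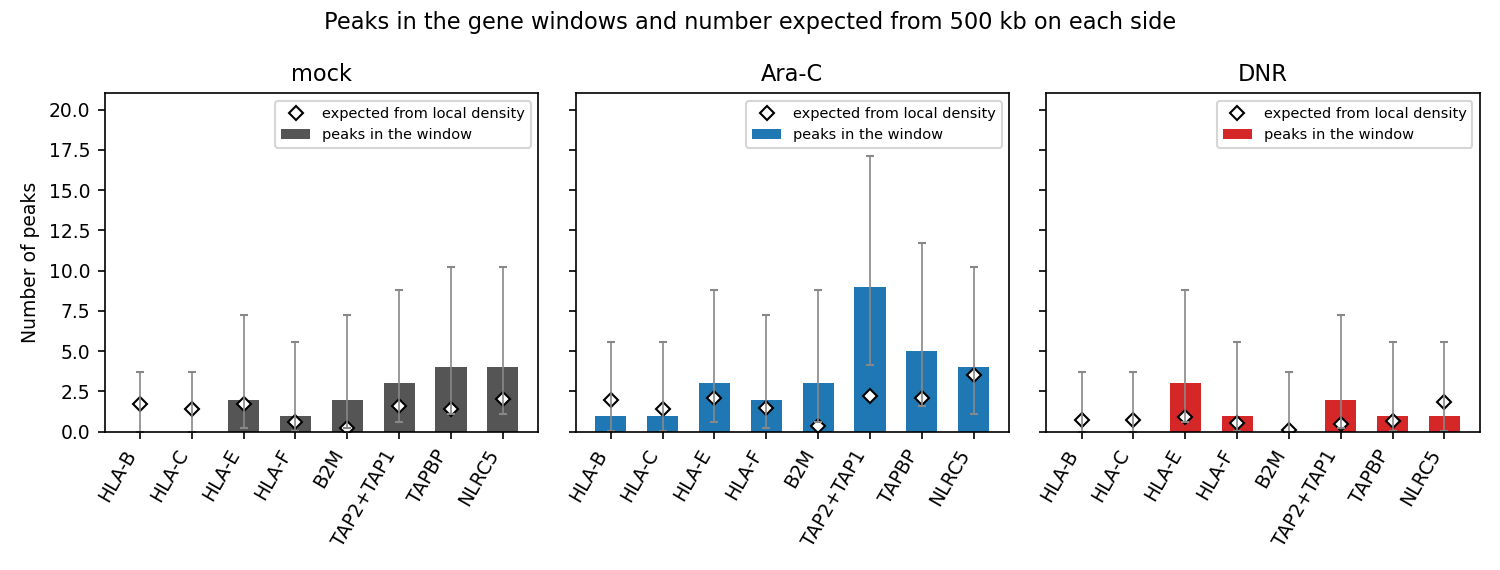
For each gene window (x axis) the bars give the number of peaks (y axis) in the mock, Ara-C and DNR lists with the exact 95% Poisson interval as a thin line, and diamonds give the number expected from 500 kb on each side. The merged TAP1 and TAP2 window has 9 Ara-C peaks against 2.21 expected and the HLA-E window 3 DNR peaks against 0.938, while HLA-B and HLA-C lie at or under the expected number in each list.

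Among the heavy chains, which present the peptide, HLA-B (minus strand) had 1 peak in all, in the Ara-C list, where 1.94 were expected. It was 450 bp wide (chr6:31334501-31334950), and peaks at least that wide were 1.57% of the Ara-C list. It lay 9545 bp upstream of the canonical TSS at the start of longer HLA-B transcripts. The CTCF core match printed above (chr6:31334843-31334856) lay 124 bp from its centre. A CTCF core match was present in the 300 bp at 1.72% of Ara-C peaks, 2.77% of mock peaks and 0.690% of DNR peaks, and it is a match of letters, not a measured site. No mock peak was within 29751 bp of that peak and no DNR peak within 54551 bp.

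HLA-C, the other classical heavy chain here, also had 1 peak, an Ara-C peak of 150 bp downstream of the gene (chr6:31230301-31230450), 9419 bp from the TSS. The expected number was 1.43. The smallest width that could be called is 150 bp, and without peaks under 200 bp HLA-C had none in any list. The nearest mock peak to the HLA-C TSS was 33382 bp away and the nearest DNR peak 117719 bp away.

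HLA-E, which presents leader peptides of other class I chains to natural killer cells, had more peaks than either classical chain in each list, with no test made. The window had 2 mock peaks where 1.73 were expected, 3 Ara-C peaks where 2.07 were expected and 3 DNR peaks where 0.938 were expected, a number within the Poisson interval of 3 (0.619 to 8.77). At least 3 DNR peaks were found in 13.7% of coding gene windows. All 3 DNR peaks are at the smallest width, and without peaks under 200 bp the window had 2 mock, 3 Ara-C and 0 DNR peaks, so that the order of DNR and mock turned round. The mock peaks lay outside the gene, 350 bp wide 7136 bp upstream of the TSS and 250 bp wide 14615 bp downstream of it. The treated lists had peaks inside the gene: an Ara-C peak of 350 bp over an exon, 765 bp downstream of the TSS (chr6:30458051-30458400), a DNR peak of 150 bp in an intron, 115 bp downstream of it (chr6:30457401-30457550), and a DNR peak of 150 bp over an exon, 1715 bp downstream.

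The HLA-E peaks of the treated lists were neighbours without overlapping. The Ara-C exon peak lay 501 bp from the first of the DNR peaks and 601 bp from the second. The third Ara-C peak, of 300 bp, lay downstream of the gene, 7065 bp from the TSS. Upstream of the gene an Ara-C peak of 300 bp, a DNR peak of 150 bp and a mock peak of 350 bp lay in a row, 651 bp and 451 bp from edge to edge. In the second DNR peak only 37.6% of the 50-base reference stretches were unique in the genome, against 100% in the first, and this is the lowest value of any peak described here.

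HLA-F, a nonclassical heavy chain found mostly inside cells, had 1 mock, 2 Ara-C and 1 DNR peak. A mock peak of 150 bp and an Ara-C peak of 200 bp began at the same base near the 3′ end of the gene record, outside basic coding transcripts (chr6:29705551-29705700 and chr6:29705551-29705750). The other Ara-C peak was 150 bp wide, 6611 bp upstream of the TSS, and the DNR peak was 150 bp wide, 17640 bp downstream of it. No list had a peak within 6 kb of the canonical TSS.

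**Figure D3:**
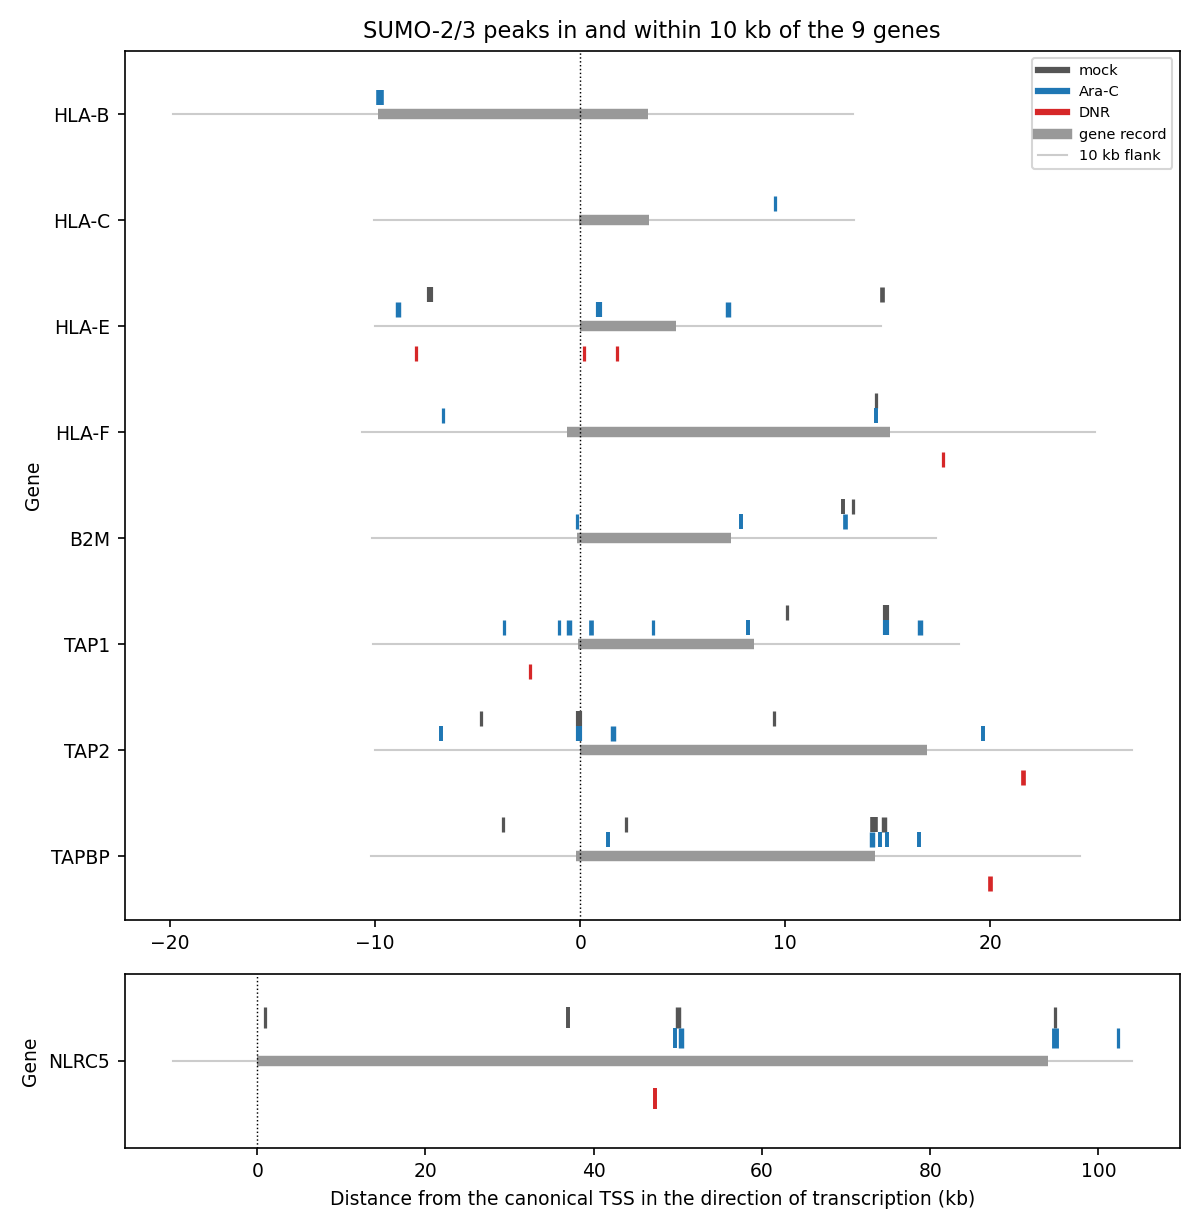
Each row is 1 gene, drawn in the direction of transcription with distance from the canonical TSS in kb (x axis), the gene record as a thick grey bar and its 10 kb flanks as a thin line; ticks are peak midpoints of the mock, Ara-C and DNR lists, thicker for wider peaks and not to the scale of the axis. Only TAP2 has peaks over the TSS, in the mock and Ara-C lists, and the 8 Ara-C peaks of TAP1 spread over both sides of its TSS; NLRC5 has its own axis, and the peaks shared by the TAP1 and TAP2 windows are drawn in both rows.

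B2M on chromosome 15 encodes the light chain of every class I molecule. It had 2 mock peaks (0.220 expected), 3 Ara-C peaks (0.357 expected) and 0 DNR peaks (0.0825 expected), and the DNR count of 0 says little at an expectation of 0.0825. An Ara-C peak of 150 bp (chr15:45003501-45003650) ended 65 bp upstream of the canonical TSS and covered a TSS of PATL2, the divergent neighbour. The nearest mock peak to the B2M TSS was 12736 bp away and the nearest DNR peak 50936 bp away. This Ara-C peak is at the smallest width and is lost when peaks under 200 bp are left out.

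Downstream of B2M the mock and Ara-C lists shared a region. A mock peak of 200 bp (chr15:45016451-45016650) and an Ara-C peak of 250 bp (chr15:45016501-45016750) overlapped by 150 bp, between B2M and TRIM69. A second mock peak of 150 bp lay beyond it (chr15:45016951-45017100). The last Ara-C peak, 200 bp wide, lay 7736 bp downstream of the TSS.

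TAP1 and TAP2 lie next to one another with PSMB8 and PSMB9, which encode immunoproteasome subunits, and TAP1 and PSMB9 are transcribed in opposite directions from a shared promoter. TAP1 had 8 Ara-C peaks against 1.25 expected, and 7.46% of coding gene windows held as many or more. It had 2 mock peaks and 1 DNR peak. The mock peaks lay no nearer than 10031 bp to the TAP1 TSS, and both also fall in the window of TAP2.

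Near the TAP1 start the Ara-C list had 3 peaks within 1 kb and the mock list had 0. The widest was 300 bp (chr6:32821901-32822200), 420 bp upstream of the TAP1 TSS and over a TSS of PSMB9. The others were 250 bp wide, 381 bp downstream of the TSS, and 150 bp wide, 970 bp upstream. The DNR peak of 150 bp (chr6:32823851-32824000) lay 2370 bp upstream of TAP1 over an exon of PSMB9, 1101 bp from the nearest Ara-C peak.

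The other Ara-C peaks of the TAP1 window were spread over its neighbours. They included a peak of 200 bp in the promoter of PSMB8, one of 150 bp in an intron shared by the TAP1 and PSMB9 records, one of 150 bp in PSMB9 and those at TAP2. A mock peak of 150 bp (chr6:32811301-32811450) fell in the 2 kb upstream of a PSMB9 transcript, but the nearest TSS to it was one of PSMB8, 347 bp away.

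TAP2 had 3 mock peaks (1.17 expected), 4 Ara-C peaks (1.59 expected) and 1 DNR peak (0.350 expected) in its window. It was the only gene of the 9 with a peak over its canonical TSS. The mock and the Ara-C peak there had the same first and last base (chr6:32806401-32806750), 350 bp wide. Peaks at least that wide were 5.62% of the mock list and 4.48% of the Ara-C list. No DNR peak lay within 17101 bp of it. TAP2 also had an Ara-C peak of 300 bp in its first part, 1466 bp downstream of the TSS, a mock peak of 150 bp in an intron, 9366 bp downstream, and a DNR peak of 250 bp 21466 bp downstream, in the promoter of HLA-DOB. The other peaks of the window were an Ara-C peak of 200 bp with its midpoint in an intron of HLA-DOB, 19566 bp downstream (chr6:32786751-32786950), and the mock and Ara-C peaks near PSMB8 given above.

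TAPBP encodes tapasin. It had 4 mock, 5 Ara-C and 1 DNR peak against 1.42, 2.12 and 0.693 expected, and most lay at its neighbours. In the promoter of RGL2, at the 3′ end of TAPBP, mock peaks of 300 and 450 bp were overlapped by Ara-C peaks of 200, 200 and 300 bp, so that 5 of the 9 mock and Ara-C peaks of the window belonged to that place. An Ara-C peak of 200 bp covered the start of a shorter TAPBP transcript, 1255 bp downstream of the canonical TSS (chr6:33280401-33280600), 701 bp from a mock peak of 150 bp in an intron. Another mock peak of 150 bp lay in the promoter of ZBTB22, an Ara-C peak of 200 bp lay over an exon of PFDN6, 16405 bp downstream, and the DNR peak of 250 bp lay 19855 bp downstream.

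NLRC5 on chromosome 16, the transactivator of class I genes, has a long record and a window of 114 kb. It held 4 mock peaks (2.05 expected), 4 Ara-C peaks (3.54 expected) and 1 DNR peak (1.82 expected). The nearest peak to its TSS was a mock peak of 150 bp in an intron, 882 bp downstream, while the nearest Ara-C peak was 24369 bp and the nearest DNR peak 47182 bp away. In the middle of the gene a mock peak of 300 bp (chr16:57073301-57073600) lay between Ara-C peaks of 200 and 300 bp, 51 and 101 bp away, with no base in common. Beyond the 3′ end an Ara-C peak of 400 bp (chr16:57118101-57118500) held a mock peak of 150 bp, and the DNR peak of 200 bp (chr16:57070651-57070850) lay in an intron. The remaining peaks were a mock peak of 200 bp over an exon, 36832 bp downstream of the TSS, and an Ara-C peak of 150 bp in the promoter of CPNE2, 102282 bp downstream.

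Peaks merged across lists by any overlap gave 44 regions: 21 in the Ara-C list alone, 10 in mock alone, 8 in DNR alone, 5 in mock and Ara-C and 0 in all 3. Of the 16 mock peaks, 6 overlapped an Ara-C peak, 37.5% (95% Wilson interval 18.5 to 61.4), against 16.1% of all mock peaks and 14.1% of those on chromosome 6. Of the 28 Ara-C peaks, 7 overlapped a mock peak (interval 12.7 to 43.4%), against 9.82% of the list. Both intervals lay above the share over the whole list, but the overlapping peaks came from 5 places. Of these the RGL2 promoter alone gave 2 mock and 3 Ara-C peaks. The lists are not limited to gene windows, and no such share was computed for the windows of other coding genes. By midpoint, 5 of 16 mock and 11 of 28 Ara-C peaks lay in a promoter. Among coding genes 10.8% had promoter peaks in mock and Ara-C without DNR, against 7.47% in mock alone.

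None of the 8 DNR peaks overlapped a peak of another list. The upper limit that a count of 0 of 8 allows is 32.4%, and over the whole DNR list 4.48% overlapped a mock peak and 5.52% an Ara-C peak, so the count of 0 is no departure from the list. Likewise 0 of 16 mock peaks (upper limit 19.4%) and 0 of 28 Ara-C peaks (12.1%) overlapped a DNR peak, where 3.38% and 2.54% did over the lists.

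Wide peaks made up more of the mock and Ara-C peaks of these windows than of their lists. The lists are not limited to gene windows, and widths around other coding genes were not compared. At 300 bp or more were 5 of 16 mock peaks (31.2%, Wilson interval 14.2 to 55.6), against 9.72% of all mock peaks. For Ara-C these were 10 of 28 (35.7%, 20.7 to 54.2) against 7.93%. Among them, mock peaks of 300 and 450 bp and an Ara-C peak of 300 bp lay in the promoter of RGL2. At the smallest width of 150 bp were 8 of 16 mock peaks (Wilson interval 28.0 to 72.0%), against 52.1% of the mock list, and 5 of 8 DNR peaks (62.5%, 30.6 to 86.3) against 56.3%. For Ara-C these were 7 of 28 (12.7 to 43.4%) against 51.5%. No DNR peak reached 300 bp, against 5.26% of the DNR list, and the widest was 250 bp. Medians were 175 bp in mock, 200 bp in Ara-C and 150 bp in DNR, and 150 bp was the median of each whole list. Mock peaks that overlapped an Ara-C peak had a median of 250 bp and the other mock peaks 150 bp. For Ara-C these medians were 250 and 200 bp; a wider peak has more bases on which to overlap another.

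**Figure D4:**
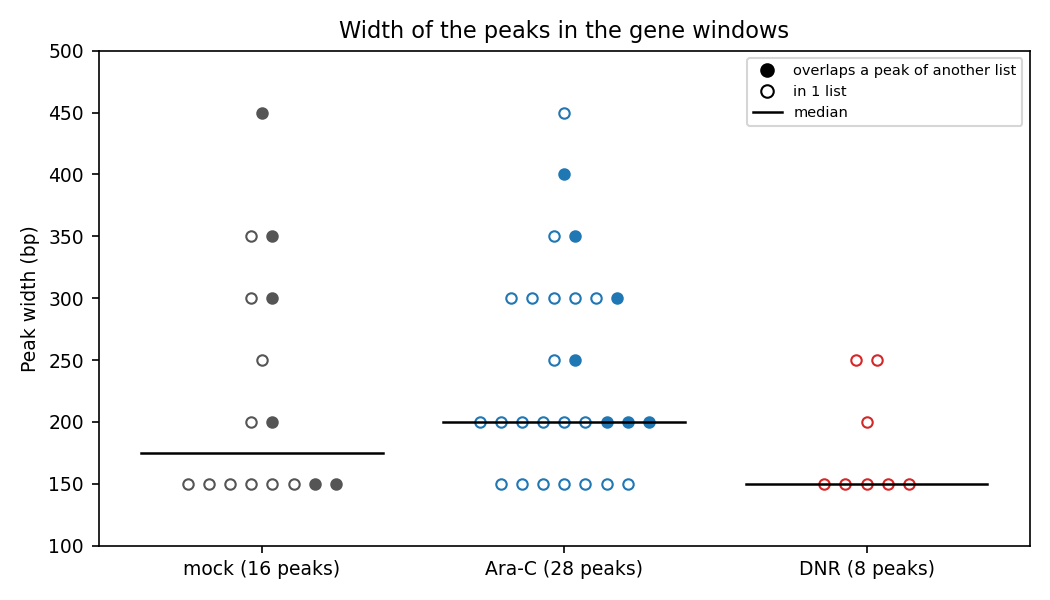
Each circle is 1 peak of the gene windows placed by list (x axis) and width in bp (y axis), filled where it overlaps a peak of another list, with a line at the median of the list. The 8 DNR peaks lie between 150 and 250 bp and none is filled, while mock and Ara-C peaks reach 450 bp.

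An ISRE match was found in the 300 bp promoters (250 bp before to 50 bp after the canonical TSS) of 6 of the 9 genes, HLA-F, B2M, TAP1, TAP2, TAPBP and NLRC5, against 7.06% of coding genes. Peaks lay over 2 of these: the Ara-C peak over the B2M match at positions -144 to -130 from the TSS, and the mock and Ara-C peaks over the TAP2 match at positions -58 to -50. The TAP1 match lay 287 bp from the nearest Ara-C peak and 10150 bp from the nearest mock peak. At TAPBP the nearest peak to the match was an Ara-C peak 1261 bp away, at NLRC5 a mock peak 877 bp away, and at HLA-F an Ara-C peak 6456 bp away. No DNR peak lay over any match, the nearest being 2237 bp from that of TAP1.

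Over all peaks of these windows, the ISRE letters were in the central 300 bp of 3 of 16 mock, 5 of 28 Ara-C and 0 of 8 DNR peaks, against 11.1%, 11.4% and 10.8% over the lists. The kappa B letters GGGNNTTCC were in the promoters of HLA-B, B2M and TAPBP, 3 of the 9, against 7.30% of coding genes. The CCAAT box (CCAAT) was in 6 promoters against 35.9%, and the interferon gamma-activated site (GAS) letters TTCNNNGAA in 0 against 6.42%. Motifs were searched on both strands and can share bases; a match is no measure of binding.

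Reads were 50 bases long and only uniquely placed reads were used, so the near-identical HLA genes could lose reads. In the reference, 88.2% (HLA-E) to 99.1% (TAP2) of the 50-base stretches of each window were unique, 96.6% at HLA-B, 92.6% at HLA-C and 92.4% at HLA-F. In the 500 bp on each side of the canonical TSS the share was between 95.1% and 100%. It was 99.8% at the canonical start of HLA-B and 98.5% at that of HLA-C. The HLA alleles of HL-60 may differ from the reference, and the part of read placement in the peaks called or missing here was not tested.

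Among 39 related genes of antigen presentation outside the 9, 12 had a mock promoter peak (30.8%), 16 an Ara-C promoter peak (41.0%) and 7 a DNR promoter peak (17.9%). Each share was above that of all coding genes, with no test made, and 17 genes had none. Part of the 39 lie on chromosome 6, where the shares of coding genes were 29.5%, 35.8% and 9.05%. Promoter peaks of PSMB8, PSMB9 and HLA-DOB also lie in the TAP1 and TAP2 windows and are counted there too. Without peaks under 200 bp the counts among the 39 were 9, 13 and 2, where 14.6%, 18.1% and 2.98% of coding genes had a promoter peak. In 9 of the 39 the mock and Ara-C lists both had one. CALR, a chaperone of new heavy chains, RFXANK, a subunit of the RFX complex, and NFYC, a subunit of the CCAAT-binding factor, had promoter peaks in all 3 lists. At CALR the widest promoter peak was 550 bp in mock, 800 bp in Ara-C and 150 bp in DNR, and at RFXANK 500, 250 and 500 bp.

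The roles hold 5 to 11 genes each, so their counts are given beside the shares of all coding genes (20.6% mock, 25.3% Ara-C and 6.00% DNR) as a description. Promoter peaks were found in 3 (mock), 4 (Ara-C) and 1 (DNR) of 9 peptide generation genes (33.3%, 44.4% and 11.1%), with PSMB9, PSME3 and TPP2 in mock and Ara-C, PSMB8 in Ara-C alone and PSMB10 in DNR alone. Of 5 folding and loading genes 2, 3 and 1 had one, with TAPBPL and HSPA5 in Ara-C alone and CANX in mock alone. Of 11 regulators 4, 5 and 2 had one (36.4%, 45.5% and 18.2%), among them IRF2 and NFYB in Ara-C alone and RFX5 in mock alone, while IRF1 had none. Of 5 class I-like genes 2, 1 and 1 had one, MICB in mock and Ara-C, MICA in mock alone and CD1D in DNR alone.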

How the data were processed

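SUMO-2/3 ChIP-seq of HL-60 cells was deposited as 1 peak list per condition. The authors aligned single-end 50-base reads to hg19 with CASAVA 1.8.2, kept uniquely placed reads with Pasha, extended them to 210 bp (mock, Ara-C) or 220 bp (DNR), removed piled-up reads (threshold 5, 4 and 4), binned at 50 bp, scaled and subtracted input. Runs over 32 that bridge no gap beyond 100 bp were called, and the shortest run on the nuclear chromosomes is 150 bp. The deposited values are start and end positions, with no count, height or p-value, so depth is unknown. A fixed value makes the number of peaks move with depth, scaling and noise.

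Here, starts were read as 1-based. Genes came from GENCODE 44 lifted to GRCh37, with windows of the gene record and 10 kb on each side. The canonical transcript gave the TSS for distances. Local density used 500 kb on each side per sequenced base, with exact Poisson intervals, and shares have 95% Wilson intervals. Distances are from edge to edge. Counts of promoter peaks use any overlap, while the exon, intron or promoter named for a single peak is that of its midpoint. The rule for the genes used no peak value, but the genes and lists were chosen with earlier results of these data known. All 9 genes and every peak in their windows are named or counted. The related genes were fixed by role, and those with a pattern in only 1 list, or in all 3, are named with examples. Overlaps were checked against bedtools 2.31.1 (0 differences) and the scripts were tested on simulated data. Python 3.11.15, pandas 2.3.3, scipy 1.17.1 and pysam 0.24.0 were used. Alternatives changed the flank, promoter rule, smallest width, overlap rule and local span. With 1 library per condition no p-value was computed. Inputs were not analysed here.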

Additional observations from a re-analysis of the deposited data

How the results depend on the processing

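Over 16 alternative settings, 65 of the values that compare lists stayed and 12 moved. Of the single gene values 73 stayed and 35 moved. All alternatives of the overlap shares and density ratios counted as stayed, each lying within the wide interval of its main value. The mock ratio of 1.49 (interval 0.849 to 2.41) counted as stayed at 2.29 with the whole chromosome, where its interval no longer included 1. For these shares and ratios, a value that stayed is therefore no evidence of robustness. At HLA-E the DNR count fell from 3 to 0 without peaks under 200 bp, below the mock count of 2. Leaving out peaks under 200 bp left 8 mock, 21 Ara-C and 3 DNR peaks in the windows, and 2 related genes with a DNR promoter peak. The gene records without flanks held 8 mock, 13 Ara-C and 3 DNR peaks. The members with a promoter peak became 3 in mock and 1 in DNR with 1 kb on each side of a TSS, and 3 in Ara-C with the canonical transcript only. The median width of mock peaks shared with another list was 250 bp. With 1 mismatch allowed, 2 of 16 mock and 3 of 28 Ara-C peaks held the CTCF core, against 8.64% and 5.62% of the lists. The ratio to local density for Ara-C was between 1.85 and 2.61 over its alternatives, 2.61 with the whole chromosome as background and 2.07 without NLRC5, and the mock ratio was 2.29 with the whole chromosome. Leaving out NLRC5, the canonical transcript rule and the peak midpoint for density were chosen after seeing the data. Limits from depth could not be set, because the lists give no read numbers, and with 1 library per condition nothing here shows how far the lists would vary on repetition. No paired analysis was possible because the replicates were pooled into 1 library and the results come from no test.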

Other observations

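The class II genes serve the presentation of peptides from the endocytic pathway and numbered 9 in the list. Several of them lie between TAP2 and TAPBP on chromosome 6. Of the 9 class II genes 1 had a mock promoter peak (11.1%, against 20.6% of all coding genes) and 3 an Ara-C promoter peak (33.3% against 25.3%). A DNR promoter peak was found for 2 (22.2% against 6.00%), with no test made. All of these peaks belong to the 7 genes on chromosome 6, of which 14.3% had a mock (95% Wilson interval 2.57 to 51.3), 42.9% an Ara-C (15.8 to 75.0) and 28.6% a DNR promoter peak (8.22 to 64.1). The shares of coding genes of that chromosome, 29.5%, 35.8% and 9.05%, lie within these intervals. HLA-DMA, a peptide exchange factor, had 8 mock peaks in its window against 3 Ara-C and 1 DNR peak, with a mock promoter peak of 200 bp and an Ara-C promoter peak of 150 bp. HLA-DOA had an Ara-C promoter peak of 250 bp, HLA-DMB a DNR promoter peak of 150 bp, and HLA-DOB an Ara-C promoter peak of 200 bp and a DNR promoter peak of 250 bp. The Ara-C peak of HLA-DOB is the one placed in an intron above: its midpoint lies in the intron of a longer transcript, and its edge reaches the 2 kb upstream of a shorter one. HLA-DRA, the alpha chain of the DR molecule, had no peak within 10 kb in any list. CIITA, the class II transactivator related to NLRC5, had 4 mock, 5 Ara-C and 1 DNR peak in its window and none in its promoter.

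The promoters of the class I genes differed in base composition. HLA-E had the lowest GC content of the 9 at 50.3% and NLRC5 the highest at 68.3%, with a median of 63.7% over coding genes. The ratio of observed to expected CpG was between 0.409 at TAPBP and 0.891 at TAP2, and 69.6% of promoters had a lower value than TAP2.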
